A study of Mus musculus with 4 samples.

Results

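The nuclear genes for complexes II, III, IV and V of oxidative phosphorylation, together with cytochrome c, were read out of the total gene counts of fetal brown adipose tissue (BAT). The members were a written list of complex II, III, IV and cytochrome c genes plus every protein-coding gene whose symbol starts with Atp5. This gave 44 of the 22298 genes listed, with 4 in complex II, 9 in complex III, 1 for cytochrome c, 12 in complex IV and 18 in complex V. The written list leaves out Cox7a1, Cox8b and Cox6a2, which are described separately. One identifier, a second entry for Atp5o, had 0 counts in all libraries, so that 43 members passed the filter on low counts and were tested.

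BAT was taken from fetuses labelled C57BL/6 (the study's methods name C57BL/6J mice) and male, at E18.5, near the end of gestation. Their dams drank sterilized tap water (control, 2 libraries) or 20% (w/v) fructose water (fructose, 2 libraries) during pregnancy, and the question was how maternal fructose changed the fetal tissue. The labels do not say whether the 2 libraries of a group came from separate fetuses or litters, or whether tissue was pooled, so the p-values measure only the spread between these libraries.

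Oxidative phosphorylation passes electrons from nutrients to oxygen along complexes of the mitochondrial inner membrane. Complex II takes electrons from succinate in the citric acid cycle, complex III hands them to cytochrome c, complex IV transfers them to oxygen, and complex V (ATP synthase) uses the resulting proton gradient to make ATP. Complexes III, IV and V also contain subunits encoded by mitochondrial DNA, whereas complex II is encoded wholly in the nucleus. Brown adipocytes are rich in mitochondria and return protons through UCP1 to release heat, and rodent BAT is known for a low ATP synthase content relative to the other complexes.

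The libraries held between 18542897 and 23645147 counts, with the higher totals in fructose. Levels are CPM, a gene's counts scaled by the library's total and by edgeR's TMM factor, and a limit of 3 counts corresponded to between 0.127 and 0.162 CPM. Genes of the Y chromosome had 422 and 390 counts in control and 0 in both fructose libraries, against the male label of the fructose samples, so fetal sex and maternal drink cannot be told apart in any comparison here. Mitochondrially encoded genes held 5.89% and 6.49% of counts in control and 10.8% and 11.2% in fructose (95% Wilson intervals within 0.0128 percentage points, counting error only). Brown adipocyte markers summed to between 21367 and 24922 CPM and overlapped between the groups. Of these 10 markers edgeR called 1 lower and 2 higher, where it called 10.7% of all tested genes lower and 15.5% higher. Skeletal muscle markers summed to 245 and 317 CPM in control and 728 and 528 CPM in fructose, with 12 of 13 higher. Of 6 erythroid markers 5 were lower. Of 5 macrophage markers edgeR called 1 lower and 1 higher, and DESeq2 called 0. Both edgeR and DESeq2 called 0 of 5 endothelial, 6 fibroblast and 4 Schwann cell markers. At an unadjusted edgeR p under 0.05, 1 endothelial marker was lower and 2 higher, 1 fibroblast marker was higher and 0 Schwann cell markers differed. With trends of transcript length and GC content removed, as described below, edgeR called 0 erythroid and 0 macrophage markers, and 13 skeletal muscle markers higher. Of 5 cardiomyocyte markers only Tnnt2, which fetal skeletal muscle also expresses, passed the filter on low counts, and it was higher, whereas Myh6, Nppa, Myl7 and Tnni3 were at or near 0. The part of sex and of these cell types in the results was not tested. In bulk tissue, fewer cells of a type and less RNA per cell cannot be told apart.

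The members were lower in fructose nearly throughout, by small amounts. The log2 fold change lay below 0 for 42 of 43 tested members, where 49.7% of all tested genes were below 0, and the exception, the cytochrome c gene Cycs, was at 0.0027. The median over the members was -0.26 (interquartile range -0.38 to -0.18) and that of all 12888 tested genes was 0.0025. Along the chain, the medians were -0.29 for complex II, -0.38 for complex III, -0.27 for complex IV and -0.26 for complex V. At an adjusted p under 0.05 by edgeR's quasi-likelihood test, with p-values adjusted over all tested genes (Benjamini-Hochberg), 20 of 43 members were lower, where 10.7% of all genes were, and 0 were higher, where 15.5% were. DESeq2 called 27 members lower and 0 higher, against 8.88% and 10.5% of all genes it tested, and at an unadjusted edgeR p under 0.05 the count of members higher was also 0. The 27 were the 20 of edgeR and Sdha, Uqcrh, Uqcrfs1, Uqcrc2, Cox7c, Atp5a1 and Atp5l. Calls described below are those of edgeR unless DESeq2 is named. With the thresholds of the study's methods, an unadjusted p under 0.05 and a fold change above 1.3, edgeR gave 11 members lower and 0 higher, against 6.18% and 17.6% of all genes.

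Both fructose libraries lay below both control libraries for 34 of the 43 tested members, and above them for 0. Over all tested genes these shares were 31.6% and 33.4%. The groups overlapped for Uqcrb, Cycs and 7 genes of complex V. The number of calls rested in part on fructose replicate 2. Without it, 5 members were called lower (Sdhb, Uqcr11, Cox4i1, Cox6a1 and Atp5e) where 3.71% of all genes were, whereas without fructose replicate 1 the count was 16, where 6.31% of all genes were, and it was 26 without either control library (12.8% of all genes without control replicate 1 and 11.2% without control replicate 2). For the 15 members that lost their call without fructose replicate 2, the log2 fold change without it lay between -0.40 and -0.22 (edgeR adjusted p from 0.056 to 0.33), and for the 5 that lost it without fructose replicate 1, all in complex V, between -0.34 and -0.29. The median stayed between -0.29 and -0.25 when any library was left out.

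**Figure D1:**
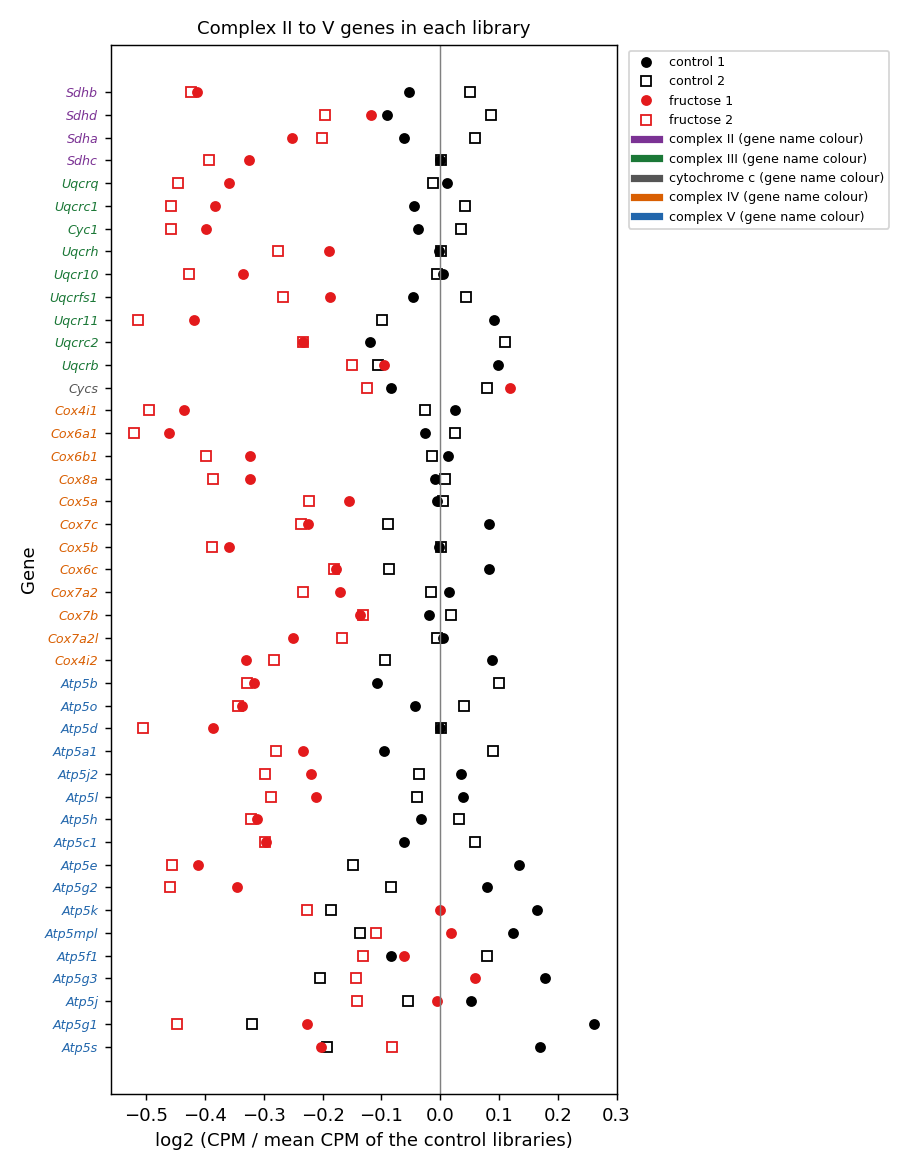
Level of each tested member in each library, as the log2 ratio of its CPM to the mean CPM of the 2 control libraries, with genes in rows grouped by complex. Black symbols are control and red symbols fructose libraries, filled for replicate 1 and open for replicate 2. For 34 of 43 members both red symbols lie to the left of both black ones.

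Transcript length and base composition moved with these differences. Across the 12884 tested genes with an annotated transcript, the log2 fold change rose with transcript length (Spearman's rho 0.467) and fell with GC content (rho -0.522), as descriptions across genes, which are not independent replicates. The members have short transcripts, with a median of 745 nt where all tested genes had 2725 nt, and a GC content of 51.4%, close to the 50.9% of all genes. Within the 43 members, the fold change followed GC content (rho -0.77) more than length (rho 0.12). With the trends of both properties removed from each library, the median of the members was -0.045, and 28 members lay below 0 and 15 above. None of the 20 calls remained by edgeR's quasi-likelihood test. In their place 4 members of low GC content, Uqcrc2, Cycs, Cox7b and Atp5s, were called lower, where 2.78% of all genes were, and Atp5k was called higher, where 4.31% were. With the length trend alone removed, 2 members (Sdhc and Uqcrc1) were lower, against 6.68% of all genes, and Atp5k and Atp5mpl were higher, against 10.2%. With the GC trend alone removed, 16 were lower, against 6.67%, of which 6 were among the 20, and 0 were higher, against 8.54%. The origin of the trends was not tested. Trend removal takes away any change that truly differs between short and long genes, and which of the fits is closer to the tissue cannot be told apart with these libraries.

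**Figure D2:**
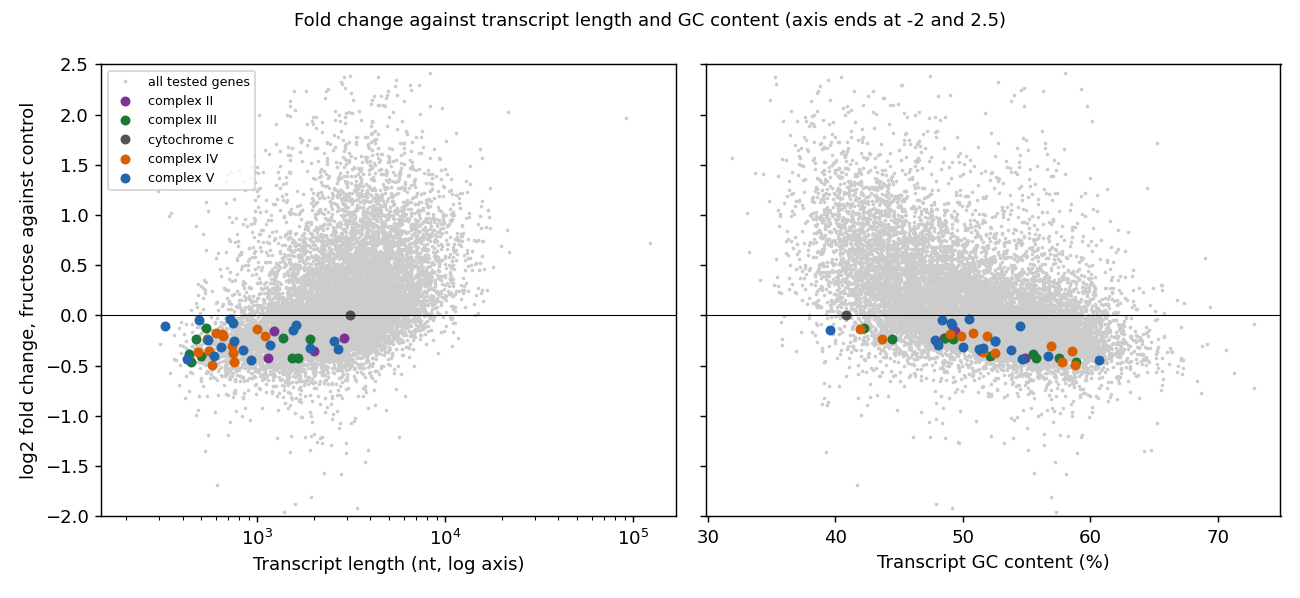
Log2 fold change (fructose against control) on the vertical axis against transcript length in nt (left, log axis) and GC content in percent (right) for all tested genes in grey and the members coloured by complex. Members sit at the short end of the length axis, and their fold changes fall with GC content.

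**Figure D3:**
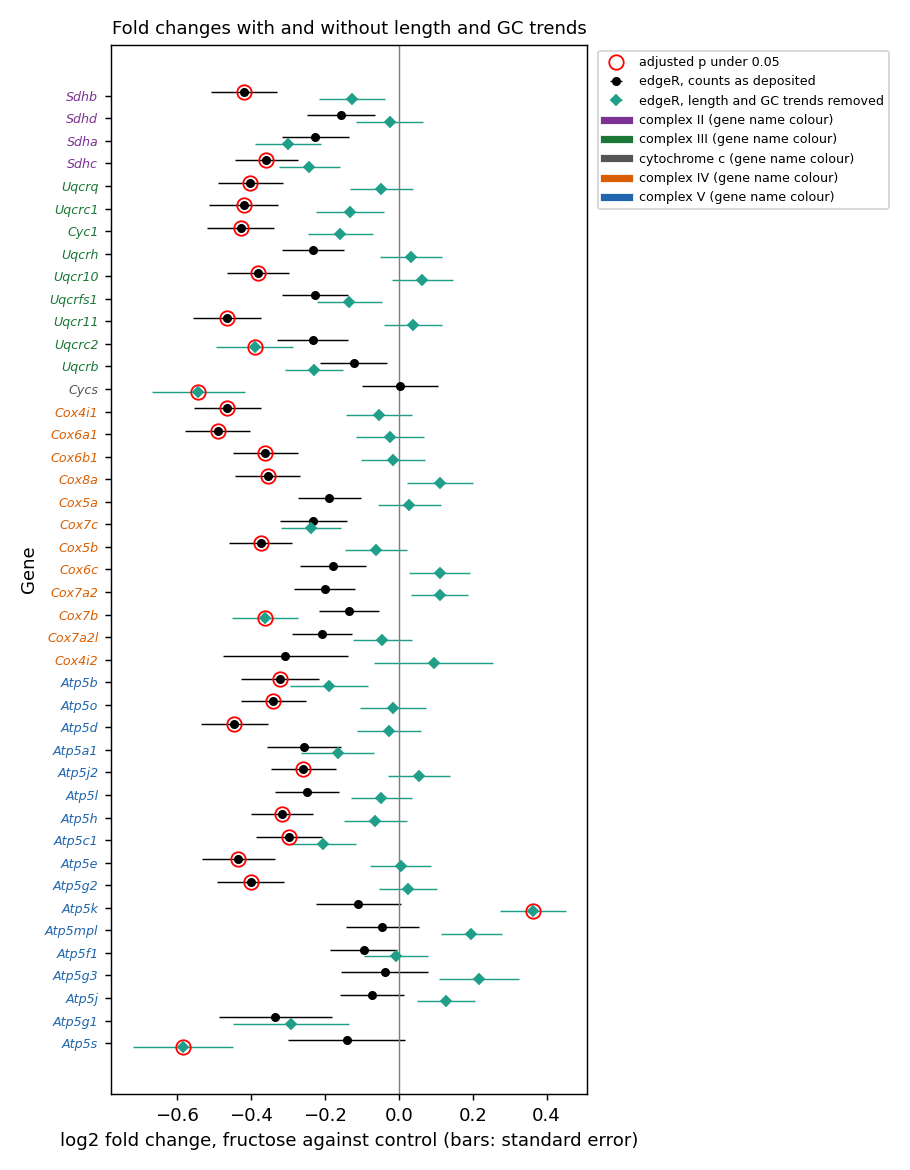
Log2 fold change of each tested member with its standard error, from the counts as deposited (black circles) and with the length and GC trends removed (green diamonds). Red rings mark an adjusted p under 0.05. They surround 20 black circles, all below 0, and 5 diamonds, 4 below 0 and 1 above.

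Complex II, succinate dehydrogenase, has 4 subunits, and 2 of them were lower by edgeR and 3 by DESeq2. Sdhb, the iron-sulfur subunit (chr4:140961203-140979193, plus strand of GRCm38), was at 2082 and 2236 CPM in control and 1619.8 and 1609 CPM in fructose. The groups did not overlap, and the decrease was the largest of the complex (log2 fold change -0.42, SE 0.09, adjusted p = 0.0061, edgeR). Sdhc, a membrane anchor, also fell (log2 fold change -0.36, SE 0.08, adjusted p = 0.010). Its call was kept with the length trend removed, at -0.27, and lost with both trends removed, at -0.24 (adjusted p = 0.10, edgeR). Sdhd, the other membrane anchor (chr9:50596357-50603812, minus strand), was at 1191 and 1346 CPM in control and 1169 and 1108 CPM in fructose. Its control replicate 1 was close to fructose replicate 1, and the difference was not called (log2 fold change -0.16, SE 0.09, adjusted p = 0.23, edgeR). Sdha, the flavoprotein that oxidises succinate, was not called by edgeR either (log2 fold change -0.23, SE 0.09, adjusted p = 0.085). DESeq2 called Sdha lower (adjusted p = 0.030). Per length, Sdhb had the highest level of the complex, at 2753 and 2209 TPM (counts per kilobase of transcript, scaled to the same total in each library) in control and fructose, and Sdhc the lowest, at 877 and 734 TPM. The median of complex II was -0.18 with both trends removed, with 4 of 4 genes below 0, where that of complex III was -0.13.

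Complex III, which oxidises ubiquinol, had 5 of 9 genes lower by edgeR and 8 by DESeq2. Its highest levels per length were those of Uqcrq, a small subunit, and Uqcrc1, a core subunit. Uqcrq (chr11:53427922-53430831, minus strand) was at 1876 and 1845 CPM in control and 1451 and 1365 CPM in fructose (log2 fold change -0.40, SE 0.09, adjusted p = 0.0070, edgeR). Uqcrc1 (chr9:108936633-108949623, plus strand) was at 4677 and 4969 CPM in control and 3697 and 3513 CPM in fructose (log2 fold change -0.42, SE 0.09, adjusted p = 0.0077, edgeR). In neither gene did the groups overlap. The call of Uqcrc1 was kept with the length trend removed (-0.28, adjusted p = 0.049, edgeR). It was lost with the GC trend removed (-0.23, adjusted p = 0.12, edgeR) and without fructose replicate 2 (-0.38). Cyc1, the haem-bearing cytochrome c1, and the small subunit Uqcr10 fell by similar amounts (log2 fold changes -0.43 and -0.38). The largest decrease was that of Uqcr11, the smallest subunit (chr10:80402997-80406830, minus strand), at 705 and 618 CPM in control and 495 and 463 CPM in fructose (log2 fold change -0.47, SE 0.09, adjusted p = 0.0044, edgeR). At the other end, Uqcrb, a ubiquinone-binding subunit (chr13:66900617-66905378, minus strand), was at 393 and 341 CPM in control and 344 and 331 CPM in fructose. Fructose replicate 1 lay above control replicate 2, so the groups overlapped (log2 fold change -0.12, SE 0.09, adjusted p = 0.34, edgeR). Not called by edgeR were also Uqcrh, the hinge subunit that docks cytochrome c, Uqcrfs1, the Rieske iron-sulfur protein, and Uqcrc2, the second core subunit. Each was at -0.23 on the log2 scale, and DESeq2 called each lower (adjusted p = 0.022, 0.027 and 0.049). Whether the core subunits differed from each other was not tested. With both trends removed their order turned, Uqcrc2 being at -0.39 (adjusted p = 0.044, edgeR) and Uqcrc1 at -0.13.

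Cycs, the electron carrier between complexes III and IV (chr6:50562563-50566538, minus strand), was the member that differed least. It was at 851 and 953 CPM in control and 979.6 and 827 CPM in fructose, so that both means lay within the spread of the libraries. The lowest and the highest values both belonged to fructose libraries (log2 fold change 0.0027, SE 0.10, adjusted p = 0.99, edgeR). Its transcript is the longest of the members, at 3123 nt, and its GC content of 40.8% is near the lowest. Removal of the GC trend moved it to -0.58 and of both trends to -0.54 (adjusted p = 0.025, edgeR), the lowest value of the members in that fit after Atp5s.

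Complex IV, cytochrome c oxidase, had 5 of 12 genes lower by edgeR and 6 by DESeq2. For all 12, both fructose libraries lay below both control libraries. Cox4i1, the broadly expressed form of the largest nuclear subunit (chr8:120668222-120674207, plus strand), had the highest level per length, 7424 and 5772 TPM in control and fructose. In the libraries it was at 3916 and 3783 CPM in control and 2847 and 2731 CPM in fructose (log2 fold change -0.46, SE 0.09, adjusted p = 0.0041, edgeR). Cox6a1, the form of subunit 6a of non-muscle tissues (chr5:115345642-115348981, minus strand), was at 2470.3 and 2558 CPM in control and 1826 and 1752 CPM in fructose. This was the largest decrease of all members (log2 fold change -0.49, SE 0.09, adjusted p = 0.0027, edgeR), and both genes remained called when any library was left out. Cox5b, a zinc-binding subunit (chr1:36691449-36693681, plus strand), was at 1564 and 1568 CPM in control and 1222 and 1197 CPM in fructose (log2 fold change -0.37, SE 0.09, adjusted p = 0.0085, edgeR). Its control libraries differed by less than its fructose libraries, and both pairs were tight. Cox6b1, which faces the intermembrane space, and Cox8a, the broadly expressed form of subunit 8, fell by 0.36 and 0.35 on the log2 scale.

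The other 7 complex IV genes were not called by edgeR, and of them DESeq2 called Cox7c lower (adjusted p = 0.032). Cox7b, which is X-linked (chrX:106015700-106022450, plus strand), had the smallest difference of the complex, with 622 and 639 CPM in control and 574 and 576 CPM in fructose (log2 fold change -0.13, SE 0.08, adjusted p = 0.25, edgeR), and with both trends removed it was at -0.36 (adjusted p = 0.034, edgeR). Cox5a, Cox6c, Cox7c, Cox7a2 and Cox7a2l had log2 fold changes between -0.23 and -0.18. Cox7a2l, known for joining complexes III and IV into supercomplexes, was at -0.21. Cox4i2, the oxygen-responsive counterpart of Cox4i1 known from lung (chr2:152754173-152765037, plus strand), was at a low level. It had 8.87 and 7.82 CPM in control and 6.63 and 6.86 CPM in fructose. Its groups did not overlap, but the difference was not called (log2 fold change -0.31, SE 0.17, adjusted p = 0.20, edgeR). Per length, it was at 16.6 and 14.4 TPM in control and fructose.

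The complex IV genes outside the written list included the forms of muscle and brown fat. Cox7a1, the form of subunit 7a of heart, muscle and brown fat, was at 757 and 698 CPM in control and 586 and 551 CPM in fructose (log2 fold change -0.36, SE 0.09, adjusted p = 0.012, edgeR). Cox8b, the matching form of subunit 8, was at 684 and 568 CPM in control and 487 and 439 CPM in fructose (log2 fold change -0.44, SE 0.10, adjusted p = 0.0099, edgeR). Both fell by amounts like those of the broadly expressed Cox8a, and both lost their call with both trends removed, at 0.08 and 0.04, and without fructose replicate 2, at -0.31 and -0.36. Cox6b2, the testis form of subunit 6b, fell most (log2 fold change -0.75, SE 0.11, adjusted p = 0.0011, edgeR) and was at -0.31 with both trends removed (adjusted p = 0.11). Cox6a2, the heart and skeletal muscle form of subunit 6a, went the other way, at 1.48 and 2.22 CPM in control and 5.22 and 4.16 CPM in fructose (log2 fold change 1.34, SE 0.28, adjusted p = 0.0057, edgeR). It was also called with both trends removed (1.67, adjusted p = 0.0047), and it moved in the same libraries as the skeletal muscle markers, 12 of 13 of which were higher. The part of muscle cells in its rise was not tested. Ndufa4, once counted in complex I and now in complex IV, was not called (log2 fold change -0.24, SE 0.08, adjusted p = 0.055), and Cox7b2 and Cox8c had 0 counts.

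In complex V, 8 of 17 tested genes were lower by edgeR and 10 by DESeq2. The catalytic F1 head was represented by its alpha, beta, gamma, delta and epsilon subunits. Atp5b, the beta subunit that holds the catalytic sites (chr10:128083273-128090391, plus strand), had the highest level of all members, at 11373 and 13118 CPM in control and 9828 and 9757 CPM in fructose and 9309 and 7988 TPM. The groups did not overlap (log2 fold change -0.32, SE 0.11, adjusted p = 0.041, edgeR), and the call was lost without fructose replicate 1 (-0.32) and without fructose replicate 2 (-0.31). It also ended with scaling by library size only (adjusted p = 0.068, edgeR) and with a minimum of 10 counts in each library (adjusted p = 0.054). Atp5d, the delta subunit of the central stalk (chr10:80138632-80145818, plus strand), was at 2286 and 2289 CPM in control and 1750.0 and 1610.5 CPM in fructose. It fell most in the complex (log2 fold change -0.45, SE 0.09, adjusted p = 0.0049, edgeR), and it also has the highest GC content of the members, 60.7%. The epsilon subunit Atp5e (log2 fold change -0.43, SE 0.10, adjusted p = 0.0086) and the gamma subunit Atp5c1 (log2 fold change -0.30, SE 0.09, adjusted p = 0.029) fell as well, and the call of Atp5c1 was lost without either fructose library and with library size only. The alpha subunit Atp5a1 was the member of F1 that edgeR did not call (log2 fold change -0.26, SE 0.10, adjusted p = 0.080, edgeR). DESeq2 called Atp5a1 lower (adjusted p = 0.020).

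In the peripheral stalk, which holds the head still, 2 of 4 genes were lower. Atp5o, which ties the stalk to the head (OSCP; chr16:91925214-91931687, minus strand), was at 2108 and 2233 CPM in control and 1719 and 1710.3 CPM in fructose (log2 fold change -0.34, SE 0.09, adjusted p = 0.015, edgeR). How the counting divided reads between Atp5o and its second identifier is not given in the sources used here, and the second entry had 0 counts in each library. Atp5h, the d subunit, also fell (log2 fold change -0.32, SE 0.08, adjusted p = 0.017). The calls of Atp5o and Atp5h were lost without fructose replicate 1 (-0.34 and -0.32) and without fructose replicate 2 (-0.33 and -0.31). Atp5f1, the b subunit, and Atp5j, coupling factor 6, overlapped between the groups and were at -0.10 and -0.07. Whether the called stalk genes differed from these was not tested.

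The membrane ring is made of 1 mature c protein that 3 genes encode, Atp5g1, Atp5g2 and Atp5g3. Atp5g2, the most abundant of them (chr15:102662864-102672352, minus strand), was at 536 and 479 CPM in control and 399 and 369 CPM in fructose, with no overlap (log2 fold change -0.40, SE 0.09, adjusted p = 0.0078, edgeR). Atp5g3 (chr2:73908447-73911326, minus strand) was at 322 and 247 CPM in control and 297 and 258 CPM in fructose. Its fructose libraries lay between its control libraries (log2 fold change -0.04, SE 0.12, adjusted p = 0.84, edgeR). Atp5g1 (chr11:96068852-96075670, minus strand) was at 60.8 and 40.6 CPM in control and 43.3 and 37.2 CPM in fructose, with fructose replicate 1 above control replicate 2 (log2 fold change -0.33, SE 0.15, adjusted p = 0.13, edgeR). The ratio of Atp5g3 to Atp5g2 counts, which needs no scaling between libraries, was 0.601 and 0.516 in control and 0.743 and 0.698 in fructose. This ratio was chosen after the values were seen. Both fructose libraries were higher, by 0.37 on the log2 scale (exact two-sided permutation test p = 0.333, the smallest that 2 against 2 libraries can give). The ratio was not corrected for the GC trend, and GC content was 56.7% for Atp5g2 and 50.5% for Atp5g3. The log2 fold changes of Atp5g2 and Atp5g3 were -0.22 and -0.04 with the GC trend removed. With both trends removed they were 0.024 and 0.22. The sequences shared by these genes and their copies elsewhere in the genome make the split of reads between them uncertain.

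Of the small membrane subunits, Atp5j2 (f) was lower (log2 fold change -0.26, SE 0.09, adjusted p = 0.048, edgeR), a call that was lost without fructose replicate 1 (-0.29) and without fructose replicate 2 (-0.22), and also with library size only (adjusted p = 0.097) and with a minimum of 10 counts (adjusted p = 0.056). Atp5l (g) was just outside the threshold by edgeR (log2 fold change -0.25, SE 0.09, adjusted p = 0.051) and was called lower by DESeq2 (adjusted p = 0.013). Atp5k (e) was at 238 and 186 CPM in control and 212 and 181 CPM in fructose, with overlapping groups and the shortest transcript of the members, 321.5 nt. It was at -0.11 from the counts as deposited and at 0.36 with both trends removed (adjusted p = 0.031, edgeR). Atp5mpl, a small proteolipid, was at -0.04 with overlapping groups. Atp5s, which has the Atp5 symbol but is no structural subunit, had the lowest level of the tested Atp5 genes, with 269, 199, 248 and 292 counts in control 1, control 2, fructose 1 and fructose 2. It was at -0.14, and at -0.58 with both trends removed (adjusted p = 0.026, edgeR).

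Summed over each complex on the per-length scale, every complex was lower in both fructose libraries than in both control libraries. Complex IV held the largest sum, 40536 and 40031 TPM in control and 34005 and 33790.4 TPM in fructose, and complex II the smallest, 5909 and 6400.1 TPM in control and 5298 and 5357 TPM in fructose. The log2 differences were -0.21 for complex II, -0.25 for complex III, -0.25 for complex IV and -0.20 for complex V (exact two-sided permutation test p = 0.333 for each of the 4, the smallest possible, and the same after adjustment). The size depended on the scale, and sums of CPM in place of TPM gave -0.29, -0.36, -0.35 and -0.30. For all members together the log2 difference was -0.23 in TPM and -0.32 in CPM. The 37 nuclear-encoded complex I genes, the most similar genes of the table, had -0.23 in TPM and -0.33 in CPM. Of these 37, 30 were called lower by edgeR, and their median log2 fold change was -0.31. The complex I median was -0.049 with both trends removed, and 5 of 37 were called lower, all of them among the 30, where 2.78% of all genes were. Of those 30 calls, 25 were lost without fructose replicate 2 and 15 without fructose replicate 1. The mean log2 CPM of the members exceeded that of complex I by 0.839 and 0.827 in control and by 0.887 and 0.879 in fructose, a shift of 0.05 (exact permutation p = 0.333). Taken over medians of the levels the shift was -0.0053 (exact permutation p = 1). Since p cannot fall below 0.333 here, the test could not show whether the members and complex I differed in response.

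The subunits of the same complexes that mitochondrial DNA encodes went the opposite way. All 6 partners, mt-Cytb of complex III, mt-Co1, mt-Co2 and mt-Co3 of complex IV, and mt-Atp6 and mt-Atp8 of complex V, were higher in fructose by edgeR. The catalytic subunit mt-Co1 was at 19748 and 25379 CPM in control and 36899 and 39282 CPM in fructose (log2 fold change 0.76, SE 0.13, adjusted p = 0.0021, edgeR). At the ends of the list, mt-Co2 had a log2 fold change of 0.63 and mt-Atp8 one of 1.57, whereas mt-Co3, mt-Cytb and mt-Atp6 lay between, at 0.81, 0.95 and 1.12. With both trends removed all 6 were still above 0 and 3 were called, mt-Cytb (0.49), mt-Atp6 (0.54) and mt-Atp8 (0.90). mt-Atp6 and mt-Atp8 overlap on the genome, so their reads may be shared.

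The ratio of nuclear to mitochondrially encoded counts was lower in both fructose libraries within each complex. For complex III it was 3.97 and 3.82 in control and 1.65 and 1.49 in fructose, a log2 difference of -1.31. For complex IV it was 0.478 and 0.401 in control and 0.209 and 0.198 in fructose, a difference of -1.11. For complex V it was 7.92 and 10.04 in control and 3.26 and 3.33 in fructose, a difference of -1.44. The groups were apart by far more than the spread between libraries in all 3, and each exact two-sided permutation p was 0.333, the smallest possible. These ratios were not corrected for the length and GC trends. The median GC content was 51.4% for the members and 38.7% for the 6 partners. With both trends removed, the median log2 fold change moved from -0.26 to -0.045 for the members. For the partners it moved from 0.88 to 0.44. Before scaling, the summed counts of all members were 1327069, 1324216, 1321872 and 1384594, in control 1, control 2, fructose 1 and fructose 2, and those of the 6 partners were 839357, 908384, 1850975 and 2040337. Whether libraries were made by selecting polyadenylated RNA, which bears on mitochondrial reads, is not given in the sources used here.

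**Figure D4:**
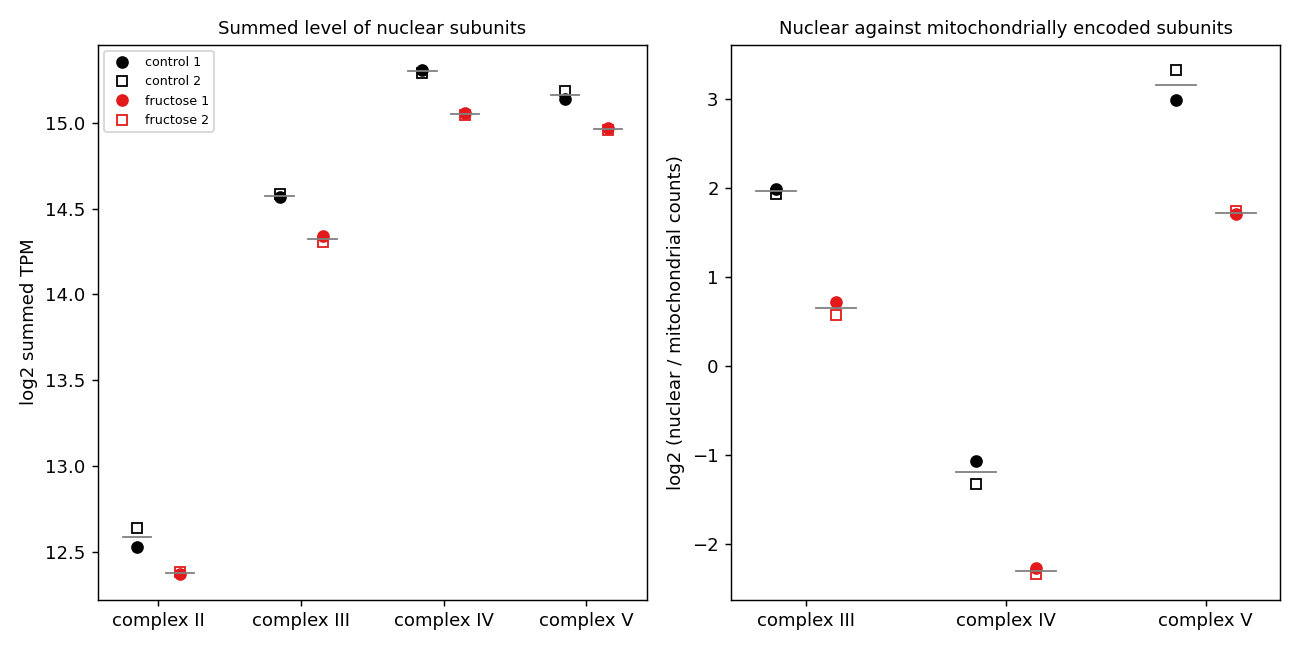
Left, log2 of the summed TPM of the nuclear genes of complexes II to V in each library, and right, log2 of the ratio of nuclear to mitochondrially encoded counts within complexes III, IV and V. Black symbols are control and red symbols fructose libraries, with grey lines at the group means. Red symbols lie below black ones for every complex, by 0.20 to 0.25 on the left and by 1.11 to 1.44 on the right. Length and GC trends were not removed on either side.

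Of 33 tested assembly factors of the 4 complexes, 5 were lower (15.2%, where 10.7% of all genes were) by edgeR. Of the complex II assembly factors, 0 of 4 were called by edgeR or DESeq2, and 2 of 4 (Sdhaf1 and Sdhaf4, at -0.27 and -0.27) had an unadjusted edgeR p under 0.05. For complex III, 3 of 6 were lower, the AAA protein Bcs1l that inserts the Rieske protein (-0.28) and the small factors Uqcc2 (log2 fold change -0.42, SE 0.10, adjusted p = 0.013, edgeR) and Uqcc3 (-0.37). Without fructose replicate 2 these 3 were not called, at -0.21, -0.31 and -0.34, and Bcs1l was not called without control replicate 1 either (-0.22). Ttc19 was the highest of that list and was not called (0.39). For complex IV, 1 of 19 tested factors was lower, Sco2, a copper chaperone, at 17.8 and 19.5 CPM in control and 12.7 and 9.10 CPM in fructose (log2 fold change -0.78, SE 0.16, adjusted p = 0.0059, edgeR), and the highest, Lrpprc, was at 0.19 and not called. For complex V, 1 of 4 was lower, Fmc1, which acts in F1 assembly (log2 fold change -0.46, SE 0.08, adjusted p = 0.0027, edgeR), while Tmem70 was at 0.05. Hccs, the enzyme that attaches haem to cytochrome c, was higher, at 19.6 and 19.8 CPM in control and 28.3 and 28.0 CPM in fructose (log2 fold change 0.51, SE 0.11, adjusted p = 0.0053, edgeR). With both trends removed, none of these 6 genes was called, and Hccs was at 0.09.

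Of 9 regulators of respiratory genes, edgeR called 5 higher and 1 lower, where 15.5% and 10.7% of all genes were. DESeq2 called 3 higher and 1 lower, where 10.5% and 8.88% of all genes were. Esrra, an orphan receptor that works with PGC-1 coactivators, was lower (log2 fold change -0.27, SE 0.08, adjusted p = 0.031, edgeR), and its relative Esrrg rose most, from a low level, at 2.37 and 2.38 CPM in control and 6.28 and 6.53 CPM in fructose (log2 fold change 1.43, SE 0.22, adjusted p = 0.0013, edgeR). The coactivator genes Ppargc1a and Ppargc1b, Gabpa, which encodes the DNA-binding part of GABP, and Yy1 were also higher, with log2 fold changes of 1.16, 0.73, 0.81 and 0.31. Nrf1, Gabpb1 and Tfam, the mitochondrial transcription factor, were not called (0.09, 0.17 and 0.20). With both trends removed, edgeR still called Esrrg, Ppargc1a and Ppargc1b higher, and Esrra was near 0. The calls of Esrra and Yy1 were lost without fructose replicate 1 (-0.33 and 0.31) and without fructose replicate 2 (-0.21 and 0.32), and the value of Ppargc1b was 1.23 without control replicate 1 and 0.36 without control replicate 2.

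The promoters of the members were searched for motifs of regulators known from respiratory genes. RefSeq promoters of GRCm38.p6, from 250 bases before to 50 bases after the start, were found for 33 of 43 member symbols (36 promoters). The NRF1 motif, searched on both strands with any base at 1 inner place, was in 10 of 33 members (30.3%) and in 5.19% of 27025 genes with a promoter. The GABP motif CCGGAAGT was in 4 members (12.1%, against 4.31% of genes), the YY1 motif AANATGGC in 5 (15.2%, against 6.96%), the ERR motif TNAAGGTCA in 2 (6.06%, against 1.43%) and the CRE motif TGACGTCA in 2 (6.06%, against 2.03%). The 27025 genes outnumber the 12888 tested, so this background includes genes that were not tested, and shares over the tested genes alone were not computed. A match describes these letters and does not show binding. Of the 10 members with an NRF1 match, 6 were called lower by edgeR (median log2 fold change -0.31), and of the 23 with a promoter and no match, 10 (median -0.25). Of all tested genes, 10.7% were. The members with a match ranged from Cox6a1, at -0.49, to Atp5g3, at -0.04.

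Stretches of 150 bases before the annotated gene are shown for the 4 members with an NRF1 match in such a stretch. Of these, 2 were called lower by edgeR (Cox6a1 and Atp5h) and 2 were not (Sdha and Sdhd), and DESeq2 also called Sdha. All are on the minus strand of GRCm38.p6 and are written 5′ to 3′ in the direction of the gene, at chr13:74350281-74350430 for Sdha, chr9:50603850-50603999 for Sdhd, chr5:115348982-115349131 for Cox6a1 and chr11:115419963-115420112 for Atp5h. Capitals mark the NRF1 matches, each 10 letters long.
Sdha: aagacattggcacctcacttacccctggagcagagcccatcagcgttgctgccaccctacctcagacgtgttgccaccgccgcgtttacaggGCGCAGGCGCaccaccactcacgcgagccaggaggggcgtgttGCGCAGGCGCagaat
Sdhd: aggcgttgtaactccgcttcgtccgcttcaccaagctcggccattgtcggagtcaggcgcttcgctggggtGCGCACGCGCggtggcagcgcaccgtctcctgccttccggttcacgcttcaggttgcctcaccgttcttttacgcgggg
Cox6a1: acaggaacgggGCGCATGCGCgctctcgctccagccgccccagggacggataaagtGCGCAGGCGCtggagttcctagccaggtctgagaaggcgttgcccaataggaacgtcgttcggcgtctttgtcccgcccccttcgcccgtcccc
Atp5h: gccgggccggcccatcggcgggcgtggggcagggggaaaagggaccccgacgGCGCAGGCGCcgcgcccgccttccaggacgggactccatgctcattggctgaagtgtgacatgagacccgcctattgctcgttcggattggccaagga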

How the data were processed

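RNA-seq was performed on fetal BAT, with 2 control and 2 fructose libraries. The deposited tables hold unnormalized gene counts. Per their processing notes and methods, the authors trimmed with fastp, aligned to mm10 (GRCm38) with Bowtie2 2.0.0.5 and TopHat2 2.0.0 and assembled transcripts with StringTie 2.2.0 before counting. The counting tool, its use of strand, its treatment of reads that match several genes and the annotation release are not given in the sources used here, so paralogs and overlapping genes are uncertain. Separate and combined count files held the same values.

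Symbols, positions, transcript lengths (median of coding transcripts) and GC content came from GENCODE M21. Genes kept by filterByExpr (12888) were tested with edgeR 4.0.16 in R 4.3.3 (TMM, quasi-likelihood, two-sided, no covariate, Benjamini-Hochberg). DESeq2 1.42.0 was an alternative, as were other scalings and filters, a replicate block, each library left out in turn, and removal of length and GC trends by lowess offsets (span 0.3). Complex sums and ratios were compared by exact permutation over libraries. The test was checked on simulated data, where the changed genes moved by more than any member did. Changes of the size seen in the members were not checked. Promoters were searched with Python 3.11.15.

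The members and lists were chosen with earlier results of these data known. Members with values in every library were the 2 with the highest level per length and those with the lowest and highest fold change of each complex, Cycs, Cox5b, Cox4i2 and the Atp5g genes, and any that kept its call with both trends removed, of which there were 0. From other lists, the mitochondrially encoded partners, the omitted complex IV genes and genes at the ends of their list were named where a result turned on them. Other list genes named, and members called only with both trends removed, were chosen after their values were seen.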

Additional observations from a re-analysis of the deposited data

How the results depend on the processing

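The count of 20 members lower, where 10.7% of all genes were, stayed within 1.5 times under the following settings. The share of all genes called lower is in brackets. It was 27 under DESeq2's test (8.88%), 21 with DESeq2's size factors (11.4%) and 17 with scaling by library size only (6.67%). Leaving mitochondrially encoded and haemoglobin genes out of the totals gave 20 (10.7%), and testing all genes with a count gave 23 (8.95%). A minimum of 10 counts in each library gave 18 (10.7%). The replicate number as a block gave 19 (11.2%), with 0 higher. With the GC trend removed the count was 16 (6.67%), but 6 of these were among the 20, and 14 of the 20 calls were lost. It moved to 2 lower and 2 higher with the length trend removed, to 4 and 1 with both trends removed and to 2 and 1 with both trends removed and the replicate block, and without 1 library it ranged from 5 to 26 lower and 0 higher. With the replicate block, Atp5b and Atp5j2 lost their call (edgeR adjusted p 0.070 and 0.075) and Atp5g1 gained one. The labels tie the replicate numbers to no shared litter, day or batch, and the correlation of same-numbered deviations was -0.026 over all tested genes and 0.29 over the members, from 2 pairs, so the numbers were not taken to pair the libraries. The cause of each move was not tested.

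With library size only, the medians were -0.20 for all members and -0.23, -0.32, -0.21 and -0.20 for complexes II, III, IV and V, where this scaling moved the median of all genes to 0.063. With the length trend removed they were -0.031, -0.23, -0.064, -0.0062 and -0.016, with both trends removed -0.045, -0.18, -0.13, -0.020 and -0.017, and with both trends removed and the replicate block -0.046, -0.18, -0.13, -0.019 and -0.016. With the GC trend removed, complex III was at -0.28. Without 1 library the medians ranged over -0.29 to -0.25 for all members, -0.33 to -0.26, -0.42 to -0.33, -0.33 to -0.21 and -0.29 to -0.22 for the complexes. The shift of the members against complex I turned to -0.0053 with medians in place of means, and ranged from 0.044 to 0.055 without 1 library. The log2 ratio of Atp5g3 to Atp5g2 ranged from 0.26 to 0.48 without 1 library, an alternative added after seeing the data.

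Members whose log2 fold change changed sign were, with the length trend removed, Sdhd 0.038, Uqcrh 0.12, Uqcrb 0.21, Cycs -0.045, Cox5a 0.11, Cox7c 0.10, Cox6c 0.13, Cox7a2 0.10, Cox7b 0.10, Cox7a2l 0.0052, Atp5j2 0.020, Atp5l 0.078, Atp5k 0.30, Atp5mpl 0.30, Atp5f1 0.053, Atp5g3 0.25, Atp5j 0.21 and Atp5s 0.017. With both trends removed they were Uqcrh 0.034, Uqcr10 0.064, Uqcr11 0.038, Cycs -0.54, Cox8a 0.11, Cox5a 0.029, Cox6c 0.11, Cox7a2 0.11, Cox4i2 0.095, Atp5j2 0.054, Atp5e 0.0057, Atp5g2 0.024, Atp5k 0.36, Atp5mpl 0.20, Atp5g3 0.22 and Atp5j 0.13. With both trends removed and the replicate block they were Uqcrh 0.035, Uqcr10 0.065, Uqcr11 0.039, Cycs -0.54, Cox8a 0.11, Cox5a 0.029, Cox6c 0.11, Cox7a2 0.11, Cox4i2 0.095, Atp5j2 0.054, Atp5e 0.0078, Atp5g2 0.025, Atp5k 0.36, Atp5mpl 0.20, Atp5g3 0.22 and Atp5j 0.13. With the GC trend removed they were Cycs -0.58 and Atp5k 0.021, with library size only Atp5mpl 0.015 and Atp5g3 0.020, with DESeq2 Cycs -0.012, with DESeq2's size factors Cycs -0.0078 and with the replicate block Cycs -0.00013. Without 1 library, sign changes occurred for Cycs (-0.12 to 0.12), Atp5k (-0.27 to 0.073), Atp5mpl (-0.17 to 0.088), Atp5g3 (-0.22 to 0.16) and Atp5s (-0.31 to 0.050).

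The 2 libraries in each group set the precision, since no permutation p can fall below 0.333, and fits without 1 library leave a lone sample that is assumed to vary like the other group. Cox4i2 and Atp5s, the tested members with the fewest counts (141 to 168 and 199 to 292 in a library), had the largest SEs of the log2 fold change (0.17 and 0.16).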
